A study of Mus musculus with 8 samples.

Results

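The proteasome subunit genes were taken by name, as the coding genes whose symbol is Psma, Psmb, Psmc, Psmd or Psme followed by a number, and 44 of the 16432 listed genes (14711 of them coding) met this rule. The name also takes in Psmc3ip, a recombination cofactor, and Psme2b-ps, a relative of Psme2, neither of which is a proteasome subunit, so 42 genes of the proteasome remained. The RNA came from C57BL/6 mouse embryos at embryonic day 18.5, from primary chondrocytes of the sternum, the cells that make cartilage. The series title describes the chondrocytes as expressing a mutant Idh1, the cytosolic isocitrate dehydrogenase. There were 3 libraries of Col2a1Cre;Idh1 fl/+ cells (Cre-Idh1 cells), 3 of Col2a1Cre cells (the Cre control) and 2 of Idh1 fl/+ cells (the floxed control). The Cre-Idh1 and Cre control cells thus share the Cre transgene, which the promoter of the cartilage collagen gene Col2a1 drives, and the Cre-Idh1 and floxed control cells share the floxed allele. The headers of the submitters' comparisons label the Cre-Idh1 group MT and the other groups as controls (CTRL). Idh1 fl/+ is the genotype on the sample labels, which were followed here, although the series' design text has fl/fl. They do not say whether libraries of a group came from separate embryos or litters, so p-values here measure the spread between libraries. The RNA Xist, which female cells express, was high in some and low in other libraries of the Cre-Idh1 and of the Cre control group, so each of these groups holds more than 1 embryo, while in the floxed control the spread may be technical.

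The 26S proteasome is the machine that degrades proteins marked with ubiquitin. Its 20S core is a barrel of stacked rings of alpha and beta subunits, and the beta subunits Psmb5, Psmb6 and Psmb7 hold the active sites that cut proteins. The 19S regulatory particle recognises ubiquitin chains, removes them and unfolds the substrate with a ring of ATPases. Interferon and immune cells replace the active subunits by Psmb8, Psmb9 and Psmb10, which gives the immunoproteasome. When proteasome activity is short, the transcription factor NRF1 (gene Nfe2l1) is released from the endoplasmic reticulum and raises the subunit genes together through antioxidant response elements in their promoters.

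The libraries held 31860422 to 44988540 reads over the listed genes, and every proteasome gene was measured in each of them. Values are normalized counts, that is reads divided by a library scaling factor, and they are not corrected for gene length. The chondrocyte genes Col2a1, Acan and Sox9 were abundant in all 8 libraries, with Sox9 at 34111 to 37347 normalized counts. Idh1 averaged 3654 ± 258 normalized counts in Cre-Idh1 cells, against 3754 ± 205 in the Cre control (SD, n = 3 each) and 2357 ± 133 in the floxed control (SD, n = 2), counted over both alleles. The Xist level was high in Cre-Idh1 replicate 1 and in replicates 1 and 3 of the Cre control, which are female, and low in the other 5 libraries. In bulk RNA fewer cells of a type and less RNA per cell cannot be told apart.

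RefSeq promoter windows (mouse build GRCm38.p6) matched 37 of the 44 genes. The search covered the 250 bases before the gene start on both strands. The core of the antioxidant response element, TGACNNNGC, stood in 5 of the 37 genes (13.5%), namely Psmb5, Psmb6, Psmc6, Psmd9 and Psmd12, against 11.5% of all 27025 genes with a window. The box bound by ETS factors, CCGGAAG, stood in 12 of the 37 (32.4%), Psmd6 among them, against 7.83% of all genes. The CCAAT box stood in 14 (37.8%), against 37.5% of all genes. The 27025 genes include many that are not listed in these data, whereas the members are coding genes that are, so the 2 sets differ in kind. These are matches of letters in a short window and are given as a description.

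The windows of Psmb5 and Psmb6 are shown because they match the letters of the antioxidant response element core and because these genes encode active sites. Whether NRF1 acts through these matches was not tested. Psmd6 is shown as the constitutive subunit that differed between Cre-Idh1 cells and the Cre control. Psmd12 is shown as 1 of the genes that match both the element core and the ETS box, Psmc6 being another. The windows lie at chr14:54617996-54618245 on the minus strand for Psmb5, at chr11:70525107-70525356 on the plus strand for Psmb6, at chr14:14120946-14121195 on the minus strand for Psmd6 and at chr11:107479278-107479527 on the plus strand for Psmd12. Each is printed 5′ to 3′ along its gene, with the antioxidant response element core or the ETS box in capitals.
Psmb5: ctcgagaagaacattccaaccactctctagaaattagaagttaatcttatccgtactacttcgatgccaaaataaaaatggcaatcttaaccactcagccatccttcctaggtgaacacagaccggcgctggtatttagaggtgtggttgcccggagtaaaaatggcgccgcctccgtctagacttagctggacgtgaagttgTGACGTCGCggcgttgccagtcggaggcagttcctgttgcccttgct
Psmb6: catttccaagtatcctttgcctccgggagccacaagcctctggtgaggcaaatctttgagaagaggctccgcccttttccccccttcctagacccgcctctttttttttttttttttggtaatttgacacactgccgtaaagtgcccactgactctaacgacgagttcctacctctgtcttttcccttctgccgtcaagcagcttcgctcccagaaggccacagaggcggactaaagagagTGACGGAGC
Psmd6: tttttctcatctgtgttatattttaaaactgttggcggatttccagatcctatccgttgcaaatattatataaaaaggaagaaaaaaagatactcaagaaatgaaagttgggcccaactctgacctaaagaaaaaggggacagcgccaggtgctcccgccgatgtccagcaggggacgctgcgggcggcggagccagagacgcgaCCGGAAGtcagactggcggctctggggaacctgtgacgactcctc
Psmd12: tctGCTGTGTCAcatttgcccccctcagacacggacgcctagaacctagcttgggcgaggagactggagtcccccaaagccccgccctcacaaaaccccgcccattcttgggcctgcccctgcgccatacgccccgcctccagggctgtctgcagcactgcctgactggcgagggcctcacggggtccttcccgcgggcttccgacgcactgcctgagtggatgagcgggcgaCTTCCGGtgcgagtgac
The capitals mark the antioxidant response element core in Psmb5 and Psmb6, starting 47 and 9 bases before the gene start. In Psmd6 they mark the ETS box, 45 bases before the start. In Psmd12 the first run is the antioxidant response element core (247 bases before the start) and the second the ETS box (17 bases), both read on the opposite strand.

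Levels are first compared between subunits, as normalized counts per kilobase of the principal transcript (GENCODE M21), averaged over the 8 libraries. The 17 subunits of the 19S particle lay close together, between 1022 for Psmd13 and 3096 per kilobase for Psmd7, the partner of the deubiquitinase Psmd14. The 14 constitutive 20S subunits spread more widely, between 227 for the alpha subunit Psma3 and 3731 per kilobase for the active-site subunit Psmb6, a ratio of 16.4 that fell to 7.53 when coding length replaced transcript length. The 3 lowest of the 42 proteasome genes were Psmb9 (11.6 per kilobase), Psma8 (12.9) and Psmb8 (20.1), and Psmb10 stood at 202. The immunoproteasome genes and the alternative alpha subunit Psma8 were therefore the low end of the family in these chondrocytes, while the constitutive active-site genes Psmb5 (636), Psmb7 (1815) and Psmb6 (3731) stood above their immune counterparts. For 12 of the 44 genes another gene or pseudogene in the annotation was at least 90% identical over at least 50% of the transcript, among them Psmb3 (7 copies), Psmb5, Psmb6, Psme1 and Psme2, so the counts of these 12 are uncertain to the extent that reads fall on such copies.

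Setting Cre-Idh1 cells against the Cre control asks what differs when chondrocytes with the same Cre transgene also carry the floxed Idh1 allele. The constitutive proteasome stood at nearly the same RNA level in both. None of the 44 genes was called higher and 2, Psmd6 and Psma8, were called lower at a limma adjusted p under 0.05, whereas 9.8% of the 14851 genes tested were called higher and 9.39% lower. No other member had an unadjusted p under 0.05, and edgeR and DESeq2 on the recovered reads called the same 2 genes. The median log2 difference (Cre-Idh1 minus Cre control, on log2 of the normalized count plus 1) was -0.00 over the 44 genes and -0.01 over all genes tested. The members' differences were also small in size, with a median of 0.11 regardless of sign against 0.26 over all genes, and 39 of 44 lay within 0.25 of 0 (88.6%), against 48.9% of all genes. The members differed less than all genes between the 2 controls as well, with median sizes of 0.05 and 0.10, so this trait is not particular to Cre-Idh1 cells.

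**Figure D1:**
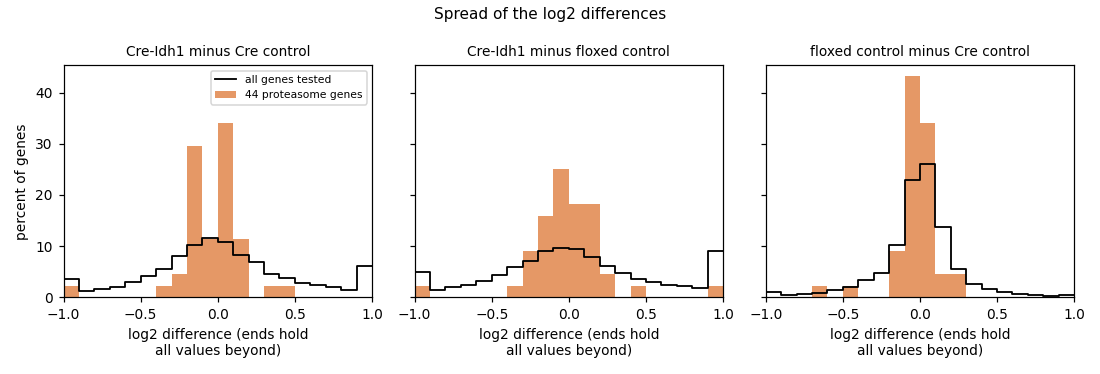
Log2 differences between groups (x axis) against the percent of genes in each bin of 0.1 (y axis), with bars for the 44 proteasome genes and a line for all genes tested. The end bins hold all values beyond 0.9 in size. In both comparisons of Cre-Idh1 cells the bars crowd around 0, with 39 and 40 of 44 genes within 0.25 of it, against 48.9% and 43.3% of all genes. Between the controls 40 of 44 lie within 0.25, against 79.1% of all genes.

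The precision behind this was higher for the members than for most genes. The median standard error was 0.11 over the 44 genes and 0.15 over all genes. For 37 of the 44 (84.1%) the 95% interval of the log2 difference lay wholly within 0.5 of 0, against 36.4% of all genes tested. Among the 31 constitutive 20S and 19S subunits this held for 30, Psmd6 being the exception, so a change of more than 0.5 on the log2 scale lay outside the interval for these 30. For 11 of the 44 genes the groups did not overlap, 2 with Cre-Idh1 above and 9 below, against 41.0% of all genes. Those above were the 20S subunit Psmb1 and Psme2b-ps. Those below were Psma1, Psma6, Psma8, Psmb7 and Psmb10 of the core, and Psmc2, Psmd6, Psmd9 and Psmd12 of the regulatory particle and its assembly.

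**Figure D2:**
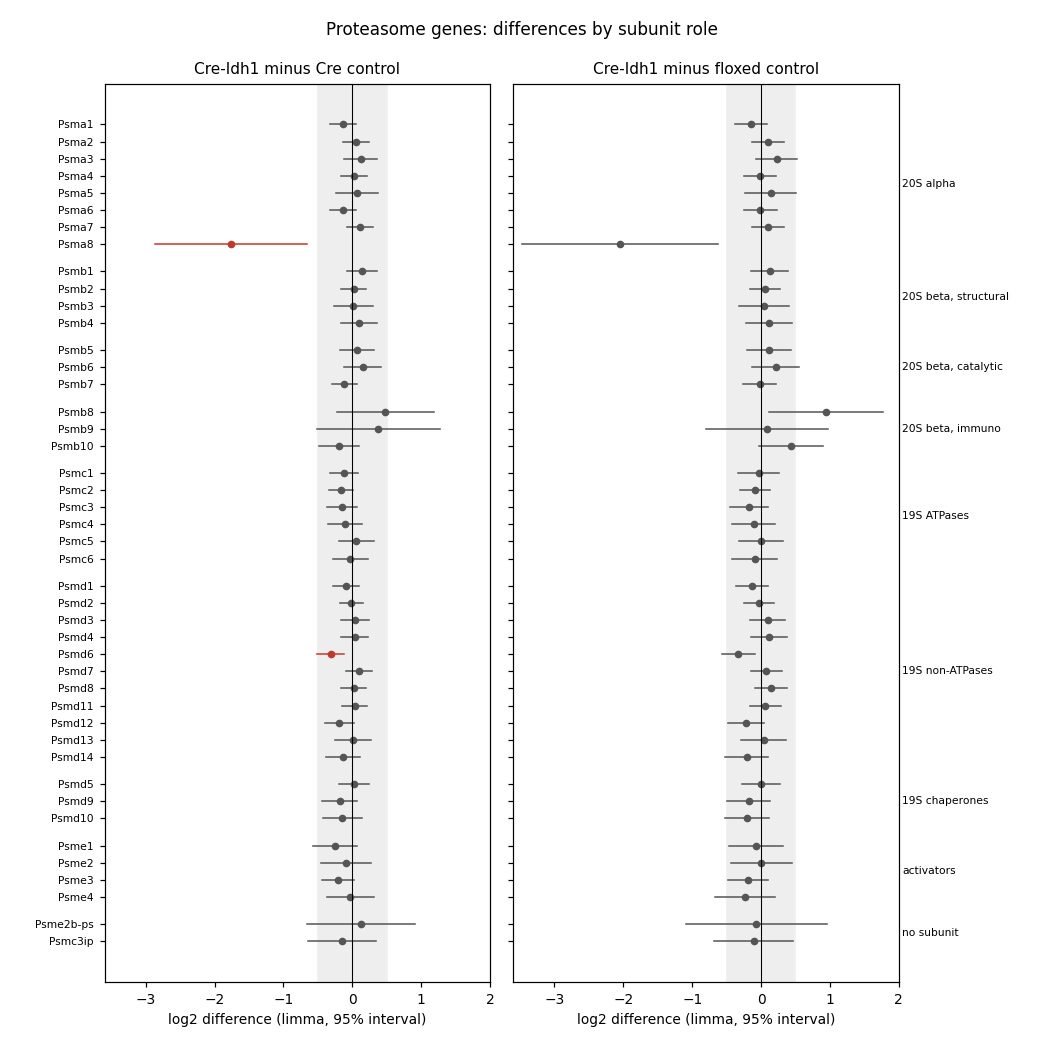
Log2 differences (x axis) of the 44 genes, 1 row each and grouped by role, with 95% intervals from limma, for Cre-Idh1 minus Cre control (left) and minus floxed control (right). Red marks the 2 genes called at an adjusted p under 0.05, Psmd6 and Psma8, both on the left. The grey band spans 0.5 either side of 0 and holds the whole interval of 37 genes on the left and 31 on the right.

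Psmd6, a scaffold subunit of the 19S lid, was the constitutive subunit that differed. It had 2409.8, 2494 and 2188 normalized counts in Cre-Idh1 cells, against 2796, 2994 and 3037 in the Cre control and 2972 and 2956 in the floxed control. Each Cre-Idh1 library lay below each of the 5 control libraries. Psmd6 averaged 2364 ± 158 in Cre-Idh1 cells and 2942 ± 129 in the Cre control (SD, n = 3 each), a log2 difference of -0.32 ± 0.09 (SE; limma adjusted p = 0.0351). Over the 16 alternatives the difference ran from -0.36 to -0.26 and the adjusted p from 0.00499 to 0.153. The call was lost without Cre-Idh1 replicate 1 (0.0742), without Cre control replicate 1 (0.0636), 2 (0.133) or 3 (0.153) and with embryo sex as a covariate (0.0822).

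The other subunits of the 19S particle did not pass. Their 6 ATPases, which unfold substrates and open the core, had log2 differences of -0.16 to 0.06, with Psmc2 the lowest. Psmc2 had 2967, 3014 and 2831 normalized counts in Cre-Idh1 cells, against 3299, 3322 and 3226 in the Cre control, and the groups did not overlap (-0.16 ± 0.08; limma adjusted p = 0.172). Psmd12, another lid subunit, had 2698, 2546 and 2259 against 2957, 2731 and 2841, again without overlap (-0.19 ± 0.09; limma adjusted p = 0.187). The median log2 difference was -0.03 over the 17 subunits of the 19S particle, of which 10 were negative, and 0.06 over the 14 constitutive 20S subunits, of which 3 were negative. Whether these medians differ was not tested. The 11 non-ATPase subunits ranged from -0.32 for Psmd6 to 0.09 for Psmd7. Psmd14, which cuts ubiquitin chains from the substrate, had 2202, 2137 and 1727 normalized counts in Cre-Idh1 cells, against 2314, 2126 and 2199 in the Cre control and 2417 and 2234 in the floxed control, low in Cre-Idh1 replicate 3 alone (against the Cre control -0.14 ± 0.11). The 3 chaperones of 19S assembly that bear a Psmd name, Psmd5, Psmd9 and Psmd10, had differences of 0.02, -0.18 and -0.15.

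None of the 14 constitutive 20S subunits was called or had an unadjusted p under 0.05, and their log2 differences ran from -0.14 for the alpha subunit Psma1 to 0.15 for Psmb6. Psmb5, the chymotrypsin-like active site, had 599.6, 536 and 648 normalized counts in Cre-Idh1 cells, against 547, 568 and 582 in the Cre control and 526 and 569.7 in the floxed control. Psmb6, the caspase-like site, had 2955, 2858 and 3859 against 2791, 2819 and 3037 in the Cre control and 2827 and 2672 in the floxed control. Psmb7, the trypsin-like site, had 2099, 2078 and 1930.0 against 2201, 2187 and 2223 in the Cre control and 2142 and 1986 in the floxed control. Psmb5 and Psmb6 overlapped with the Cre control (0.07 ± 0.11 and 0.15 ± 0.12), and Psmb6 was high in Cre-Idh1 replicate 3 alone. Psmb7 lay below each Cre control library (-0.12 ± 0.08; limma adjusted p = 0.343) and overlapped with the floxed control. The structural beta subunits Psmb1 to Psmb4 had differences of 0.01 to 0.14, and Psmb1 was the one whose Cre-Idh1 libraries (3387, 3423 and 3982) lay above each Cre control library (3042, 3339 and 3382; 0.14 ± 0.09; limma adjusted p = 0.323).

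**Figure D3:**
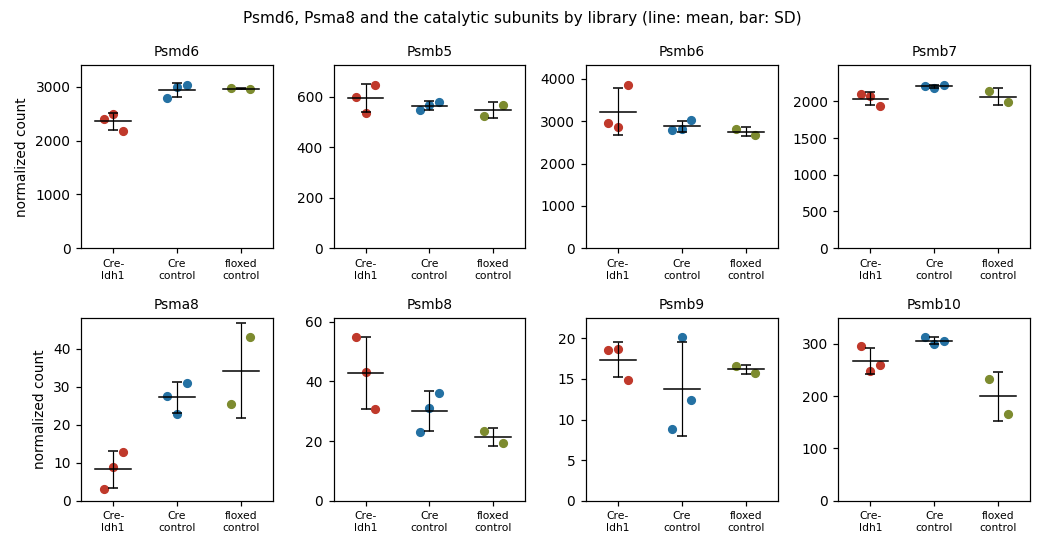
Normalized counts (y axis, from 0) of Psmd6, the active-site subunits, Psma8 and the immunoproteasome subunits in the 3 Cre-Idh1, 3 Cre control and 2 floxed control libraries (x axis). Points are libraries, horizontal lines means and bars SD. Psmd6 at 2188 to 2494 and Psma8 at 3.1 to 12.7 lie below all controls in Cre-Idh1 cells, while Psmb8 is highest in Cre-Idh1 replicate 1 at 54.8.

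Psma8 is an alternative alpha subunit that takes the place of Psma7 in the proteasome of male germ cells. It was at the edge of detection here, with 3, 9 and 12 reads in the Cre-Idh1 libraries, 25, 25 and 30 in the Cre control and 26 and 49 in the floxed control. In normalized counts this was 3.1, 8.82 and 12.7 in Cre-Idh1 cells, against 27.5, 22.9 and 31.0 in the Cre control and 25.4 and 42.9 in the floxed control, with no overlap. Psma8 fell against the Cre control (log2 difference -1.77 ± 0.49, SE; limma adjusted p = 0.0357), and it passed the filter on low values through the control libraries. It missed the threshold without Cre-Idh1 replicate 1 (0.0622), Cre-Idh1 replicate 2 (0.0585) or Cre control replicate 1 (0.107), 2 (0.0892) or 3 (0.138), within a range of 0.015 to 0.138 over 16 alternatives. For each 100 normalized counts per kilobase of transcript of Psma7 there were 0.0617, 0.184 and 0.237 per kilobase of Psma8 in Cre-Idh1 cells, against 0.609, 0.470 and 0.663 in the Cre control and 0.538 and 0.910 in the floxed control.

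The immunoproteasome subunits were not called in any comparison. Psmb8 had 54.8, 43.1 and 30.8 normalized counts in Cre-Idh1 cells, against 23.1, 31.1 and 36.2 in the Cre control and 23.4 and 19.3 in the floxed control. It was highest in Cre-Idh1 replicate 1, overlapped with the Cre control (0.48 ± 0.31; limma adjusted p = 0.309) and lay above both floxed control libraries (0.94 ± 0.36; limma adjusted p = 0.119). Psmb9 had 18.6, 18.6 and 14.9 normalized counts, against 8.8, 20.1 and 12.4 in the Cre control and 16.6 and 15.8 in the floxed control. With intervals of -0.51 to 1.27 against the Cre control and -0.79 to 0.97 against the floxed control, a difference in Psmb9 was not detectable at this depth. Psmb10 had 296, 247 and 260.2, against 312, 299 and 305 in the Cre control and 232 and 167 in the floxed control, below each Cre control library (-0.19 ± 0.13; limma adjusted p = 0.318) and above each floxed control library (0.44 ± 0.20; limma adjusted p = 0.177).

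Set against its constitutive partner, Psmb8 stood at 5.05, 4.44 and 2.63 normalized counts per kilobase of transcript for each 100 per kilobase of Psmb5 in Cre-Idh1 cells, against 2.33, 3.02 and 3.44 in the Cre control and 2.46 and 1.87 in the floxed control. Psmb10 stood at 12.5, 10.5 and 11.9 per kilobase for each 100 per kilobase of Psmb7, against 12.6, 12.1 and 12.2 in the Cre control and 9.60 and 7.42 in the floxed control. Macrophages and other leukocytes carry immunoproteasomes, and their markers, like Psmb8, were highest in Cre-Idh1 replicate 1. The summed level of 16 such markers was 13890, 6626 and 5726 normalized counts in Cre-Idh1 cells, against 3985, 7222 and 5100 in the Cre control and 5516 and 4295 in the floxed control. Of the 14 markers tested against the Cre control 4 were called higher and none lower, where 9.8% of all genes were called higher, led by the complement genes C1qb (2.25 ± 0.35; limma adjusted p = 0.00363), C1qc (2.03) and C1qa (1.60) and by Cd68 (1.02). The number called higher was 1 without Cre control replicate 1 or 3 and 2 without Cre-Idh1 replicate 1. Against the floxed control 5 of 16 were called higher, where 7.47% of all genes were, and none without either floxed control library. Aif1 was the marker with a library at 0, Cre control replicate 3. The summed level of 8 endothelial markers was 899, 264 and 647 normalized counts in Cre-Idh1 cells, against 199, 292 and 241 in the Cre control and 348 and 229 in the floxed control, and Tie1 was the one called higher against the Cre control (1.88 ± 0.44; limma adjusted p = 0.019). These marker lists were chosen with earlier results of these data known. The part of these cells in the Psmb8 values was not tested.

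Genes of the interferon response and of antigen presentation share inducers with the immunoproteasome. Their list, too, was chosen with earlier results of these data known. Of 14 tested against the Cre control 2 rose, the class I heavy chain H2-K1 (0.75 ± 0.13; limma adjusted p = 0.00548) and the peptide loading factor Tapbp (0.50 ± 0.08; limma adjusted p = 0.0047), and 1 fell, where 9.8% of all genes were called higher and 9.39% lower. The median log2 difference of the list was -0.06 against the Cre control and 0.51 against the floxed control, and -0.22 between the controls (floxed minus Cre), where none was called. Irf1, a factor that induces immunoproteasome genes, had 869, 836 and 631 normalized counts in Cre-Idh1 cells, against 553, 541 and 627 in the Cre control, without overlap (0.43 ± 0.14; limma adjusted p = 0.0649; called by DESeq2 at 0.0252 and by limma without Cre-Idh1 replicate 3 at 0.00488). Against the floxed control Irf1 rose (0.86 ± 0.23; limma adjusted p = 0.0465) along with H2-K1 and Tapbp, and 1 gene fell, of 13 tested, where 7.47% of all genes were called higher and 6.96% lower. Irf1 missed the threshold by edgeR (0.0545) and by limma without Cre-Idh1 replicate 1 (0.0967), Cre-Idh1 replicate 2 (0.109) or floxed control replicate 2 (0.35). H2-K1 missed it without floxed control replicate 1 (0.14) or 2 (0.154) or Cre-Idh1 replicate 2 (0.0578), and Tapbp without floxed control replicate 1 (0.068) or 2 (0.154). The number called higher against the floxed control thus ran from 0 to 3 when 1 library was left out.

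The proteasome activators did not pass either. Psme1 and Psme2 form the interferon-inducible PA28 cap, Psme3 the nuclear PA28-gamma cap and Psme4 the PA200 cap. Psme1 had 522, 452 and 632 normalized counts in Cre-Idh1 cells, against 624, 693 and 583 in the Cre control and 575 and 542 in the floxed control (against the Cre control -0.25 ± 0.14; limma adjusted p = 0.247). Psme2 had 339, 315 and 458 against 356, 413 and 403 in the Cre control and 364 and 364 in the floxed control (-0.09 ± 0.16). The groups overlapped for both genes, and both were highest among the Cre-Idh1 libraries in replicate 3. Psme3 had 4040.2, 4192 and 3334 against 4191, 4404 and 4716 in the Cre control and 4387 and 4379.8 in the floxed control (-0.21 ± 0.11; limma adjusted p = 0.198). Psme4 had 6568, 6868 and 4501 against 6418, 5738 and 5869 in the Cre control and 6470.3 and 7325 in the floxed control (-0.03 ± 0.15). In both of these genes Cre-Idh1 replicate 3 lay below every other library.

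The 2 genes that match by name alone were not called. Psmc3ip had 99.2, 152 and 141 normalized counts in Cre-Idh1 cells, against 119.9, 173 and 139.7 in the Cre control and 151 and 127 in the floxed control, with overlap throughout. Psme2b-ps stood at 10.5 to 18.6 in all 8 libraries, near the filter on low values.

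Cre-Idh1 replicate 3 deviated most within its group, over the family and over all genes tested. The log2 level of 35 constitutive subunits and activators in it, minus the mean of Cre-Idh1 replicates 1 and 2, had an SD of 0.262 over the genes, and 14 of the 35 lay beyond 0.25 in size. The same SD was 0.113 and 0.160 for Cre-Idh1 replicates 1 and 2 and 0.0584 to 0.0974 for the 5 control libraries, each set against the rest of its group. Over all genes tested against the Cre control these SDs were larger. They were 0.530 for Cre-Idh1 replicate 3, 0.454 and 0.406 for Cre-Idh1 replicates 1 and 2, and 0.322 to 0.404 for the control libraries. Among the 35 genes the lowest in Cre-Idh1 replicate 3 was Psme4 (-0.58), followed by the ATPase Psmc6 (-0.38) and the deubiquitinase Psmd14 (-0.33). The highest were Psme2 (0.49), Psmb6 (0.41) and the 20S subunit Psmb4 (0.39). Across the 35 genes of this 1 library the deviation ran with the GC content of the transcript (Spearman rho 0.707) and against its length (rho -0.436). Cre-Idh1 replicates 1 and 2, each set against the mean of the other 2 libraries of the group and so against replicate 3 too, had a rho with GC content of -0.579 and -0.796 and a rho with length of 0.346 and 0.518. In the 5 control libraries the rho with GC content ran from -0.194 to 0.220. Their rho with length ran from -0.501 in Cre control replicate 2 to 0.464 in Cre control replicate 1. The length trend of Cre-Idh1 replicate 3 was thus within the range of the controls. The points of each rho share libraries and are given as a description.

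**Figure D4:**
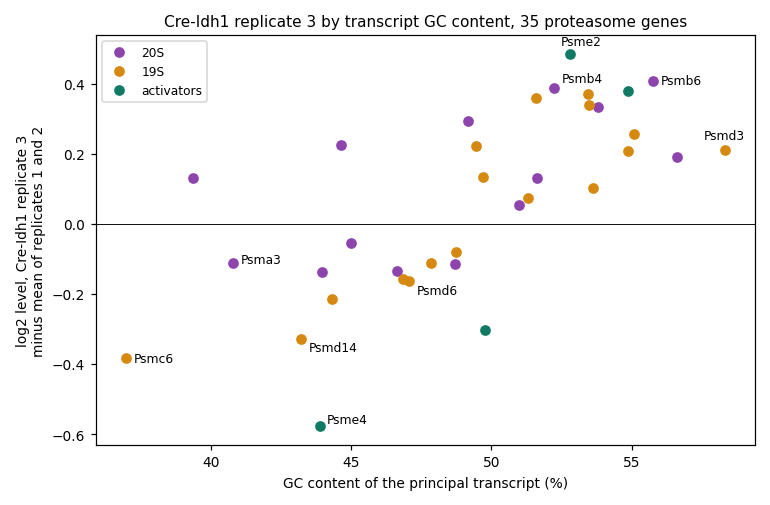
GC content of the principal transcript (x axis, percent) against the log2 level in Cre-Idh1 replicate 3 minus the mean of replicates 1 and 2 (y axis), 1 point for each of 35 proteasome genes, coloured by complex. Genes poor in GC such as Psmc6 (-0.38) and Psmd14 (-0.33) lie below 0 and GC-rich ones such as Psmb6 (0.41) above it, with a Spearman rho of 0.707.

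This library also bears on the calls. Without Cre-Idh1 replicate 3, 5 members were called lower against the Cre control, namely Psmd6, Psma8, the ATPases Psmc3 and Psmc4 and the activator Psme1, and none higher. In that run 3854 of the 15115 genes tested were called, in either direction. Psmc3 had 3234, 3094 and 3777 normalized counts in Cre-Idh1 cells, against 3697, 3674 and 3801 in the Cre control. Psmc4 had 2276, 2216 and 2841 against 2632, 2483 and 2752. In both genes replicates 1 and 2 lay below the Cre control and replicate 3 within it or above it. Without Cre-Idh1 replicate 1 or any of the Cre control libraries no member was called, and without Cre-Idh1 replicate 2 only Psmd6 was.

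Against the floxed control, the question is what differs once Cre is added to the floxed allele. The 3 Cre-Idh1 libraries are the same as in the comparison above. No member was called higher or lower by limma, whereas 7.47% of the 15212 genes tested were called higher and 6.96% lower. At an unadjusted p under 0.05 there were 3, Psma8, Psmd6 and Psmb8. edgeR called Psma8, DESeq2 and the authors' deposited table Psma8 and Psmd6, all lower. The median log2 difference was -0.01 over the 44 genes and 0.00 over all genes, and the median size 0.11 and 0.31. The 95% interval lay within 0.5 of 0 for 31 of the 44 genes (70.5%), against 25.4% of all genes, and 40 of 44 differences lay within 0.25 (90.9%), against 43.3%. For 19 of the 44 the groups did not overlap, 9 above and 10 below, against 53.4% of all genes. Those above were Psma2, Psma3, Psma7, Psmb2, Psmb6, Psmb8 and Psmb10 of the core and Psmd7 and Psmd8 of the 19S particle. Those below were Psma1, Psma8, Psmc2, Psmd1, Psmd6, Psmd9, Psmd10, Psmd12, Psmd14 and the activator Psme3.

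By role the values against the floxed control ran close to 0 again. The 14 constitutive 20S subunits had a median log2 difference of 0.10 and a range of -0.14 to 0.23, with Psma3 at the top. The 17 subunits of the 19S particle had a median of -0.03 and a range of -0.33 to 0.15, with Psmd6 at the bottom (-0.33 ± 0.10; limma adjusted p = 0.0735). In the authors' deposited table the adjusted p of Psmd6 was 0.00926 and that of Psma8 0.00383. Psma8 differed by -2.05 ± 0.61 (limma adjusted p = 0.0632). The Psmb8 difference of 0.94 was called without Cre-Idh1 replicate 3 (limma adjusted p = 0.0458), within a range of 0.0458 to 0.476 over its 14 alternatives.

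Between the controls, floxed against Cre, no member was called, as 0.0% of the 14870 genes tested were called higher and 0.0134% lower, and edgeR, DESeq2 and the authors' deposited table called no member either. At an unadjusted p under 0.05 there were 2, Psmb10 and Psme4. Psmb10 was lower in the floxed control (-0.63 ± 0.15; limma adjusted p = 0.419), and its 232 and 167 normalized counts did not overlap with the 312, 299 and 305 of the Cre control. Psme4 differed by 0.20 ± 0.08 (limma adjusted p = 0.624). For 8 of the 44 the groups did not overlap, against 24.8% of all genes. The median size of the difference was 0.05 over the members and 0.10 over all genes, and 40 of 44 lay within 0.25 (90.9%), against 79.1% of all genes. Psmd6 stood at 0.01, with an interval of -0.14 to 0.16. This comparison shares the Cre control with the first and the floxed control with the second.

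Genes that control the proteasome or work beside it were read off the same fits. Among 13 assembly factors and associated proteins none was called in any of the 3 comparisons by limma, edgeR or DESeq2. Against the floxed control Pomp was called with all 8 libraries in 1 limma fit (adjusted p = 0.0328) and, with Adrm1, in the authors' deposited table (0.016 and 0.0445). At an unadjusted p under 0.05 there were 1 against the Cre control (Adrm1), 2 against the floxed control (Pomp and Adrm1) and 0 between the controls. Pomp, the chaperone of 20S core maturation, had 2101, 2069.9 and 2423 normalized counts in Cre-Idh1 cells, against 1806, 1951 and 1961 in the Cre control and 1769 and 1708 in the floxed control. Its Cre-Idh1 libraries lay above all controls, at 0.20 ± 0.09 (limma adjusted p = 0.163) and 0.33 ± 0.11 (0.0881, and 0.0349 without Cre-Idh1 replicate 3). The ubiquitin receptor Adrm1 differed by 0.32 ± 0.14 and 0.40 ± 0.16 (limma adjusted p = 0.13 and 0.14), the 20S inhibitor Psmf1 by 0.01 and -0.01, and the deubiquitinase Usp14 by -0.28 and -0.28. Usp14 stood at 1473 normalized counts in Cre-Idh1 replicate 3, against 2570.1 and 2677 in replicates 1 and 2 and 2559 to 2717 in the controls.

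The list of NRF1 and NRF2 control holds 17 genes, the transcription factors, their partners and regulators and known target genes. It was chosen with earlier results of these data known, so its counts are a description and no independent test. Against the Cre control 8 rose and none fell, where 9.8% of all genes were called higher, and against the floxed control 7 rose and none fell, where 7.47% were. The other genes of the list did not pass. When 1 library was left out, 0 to 2 genes of the list were called lower against the Cre control. Leaving out a library also gave lower calls in the list against the floxed control. The median log2 differences of the list were 0.25 and 0.29, with ranges of -0.30 to 1.69 and -0.37 to 1.91, and 1 and 2 genes were lower at an unadjusted p under 0.05. Between the controls limma, edgeR and DESeq2 called none, and 5 of the 17 were lower in the floxed control at an unadjusted p under 0.05. Of all 14870 genes tested between the controls 1133 had an unadjusted limma p under 0.05, in either direction. Nfe2l1, the gene of NRF1, had 26089.7, 32752 and 29682 normalized counts in Cre-Idh1 cells, against 21339, 23042 and 23528 in the Cre control and 23028 and 25169 in the floxed control. It lay above all controls, and it passed against the Cre control (0.38 ± 0.11; limma adjusted p = 0.0404) but not against the floxed control (0.29 ± 0.13; limma adjusted p = 0.175). The first call was lost without Cre-Idh1 replicate 2 (0.109), without Cre control replicate 1, 2 or 3 (0.112 to 0.115) and with embryo sex as a covariate (0.0962).

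Nfe2l2, the gene of NRF2, had 2746, 3003 and 2378 normalized counts in Cre-Idh1 cells, against 1771, 1918 and 1784 in the Cre control and 1714 and 1637 in the floxed control. Hmox1, the haem oxygenase and a target of NRF2, had 23358, 17942 and 20370.0 against 5873, 6687 and 6428 in the Cre control and 5572 and 5320.2 in the floxed control. Neither gene overlapped with a control. Nfe2l2 rose by 0.56 ± 0.10 and 0.69 ± 0.12 (limma adjusted p = 0.00699 and 0.0137) and Hmox1 by 1.69 ± 0.11 and 1.91 ± 0.13 (0.000108 and 0.000966). Mafg, a small MAF partner of both factors, rose by 0.80 ± 0.11 and 0.87 ± 0.12 (limma adjusted p = 0.0016 and 0.00629), and Gclm, which limits glutathione synthesis, by 0.65 and 0.59. Maff, Mafk and Nqo1 made up the rest of the genes called in both. The 8 against the Cre control became 4 without Cre control replicate 3 and 5 without Cre-Idh1 replicate 1, and the 7 against the floxed control became 3 and 1 without its replicate 1 or 2. Against the floxed control the calls of Nfe2l2 and Mafg were lost without its replicate 1 or 2 (limma adjusted p up to 0.164), and that of Gclm also without Cre-Idh1 replicate 1 or 2 (up to 0.241). Of the genes called in both comparisons, Hmox1 was the one that kept both calls without each library in turn.

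**Figure D5:**
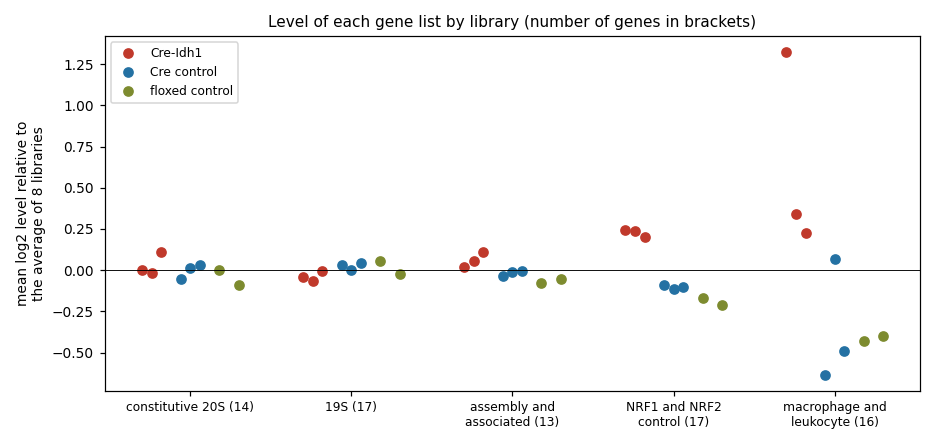
Mean log2 level of 5 gene lists in each library relative to the average of the 8 libraries (y axis), by list (x axis), with Cre-Idh1, Cre control and floxed control libraries as separate points. The lists were chosen with earlier results of these data known. The 17 genes of NRF1 and NRF2 control lie at 0.203 to 0.245 in the Cre-Idh1 libraries and at -0.212 to -0.0924 in the controls, while the 19S subunits lie between -0.0640 and 0.0543 in all 8 and the leukocyte markers are highest in Cre-Idh1 replicate 1 at 1.32.

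The proteasome genes and the NRF1 and NRF2 list differed in level across the libraries. That list mixes factors and regulators with target genes such as Hmox1, so its level is not that of proteasome regulators alone. The mean log2 level of its 17 genes, relative to the average of the 8 libraries, was 0.245, 0.240 and 0.203 in Cre-Idh1 cells, against -0.0924, -0.112 and -0.104 in the Cre control and -0.167 and -0.212 in the floxed control. That of the 14 constitutive 20S subunits was 0.00365, -0.0163 and 0.108, against -0.0508, 0.0132 and 0.0301 and 0.000261 and -0.0885. That of the 17 subunits of the 19S particle was -0.0395, -0.0640 and -0.00266, against 0.0309, -0.000467 and 0.0437 and 0.0543 and -0.0222. For the NRF1 and NRF2 list each Cre-Idh1 library lay above each control library. The groups overlapped for the 20S list. For the 19S list each Cre-Idh1 library lay below each Cre control library, the nearest of them at -0.00266 and -0.000467. The Cre-Idh1 libraries overlapped with the floxed control for this list. Differences in these list levels were not tested, and the lists were chosen with earlier results of these data known. The 5 genes with the antioxidant response element core named above went in both directions, and none was called. Against the Cre and the floxed control Psmb5 differed by 0.07 and 0.11 and Psmb6 by 0.15 and 0.22. Psmc6 differed by -0.03 and -0.09, Psmd9 by -0.18 and -0.18 and Psmd12 by -0.19 and -0.21. Whether the element bears on these values was not tested.

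Of 18 genes of ubiquitin supply and of the shuttles that carry substrates to the proteasome, 2 rose against the Cre control, where 9.8% of all genes were called higher, and 2 against the floxed control, where 7.47% were, and none fell. These counts are near the share over all genes. Rps27a, which encodes ubiquitin fused to a ribosomal protein, was called against the Cre control (0.51 ± 0.13; limma adjusted p = 0.025) and not against the floxed control (0.38 ± 0.16; limma adjusted p = 0.157). It had 369, 341 and 372 normalized counts in Cre-Idh1 cells, against 262, 229.6 and 270.1 in the Cre control and 247 and 311 in the floxed control, above all controls. The call was lost on leaving out each of the Cre control libraries in turn and on leaving out Cre-Idh1 replicate 1, at limma adjusted p of 0.0636 to 0.108. The count of genes that rose against the Cre control was 0 without Cre control replicate 2 or 3 and 1 without Cre control replicate 1 or Cre-Idh1 replicate 1. The count that rose against the floxed control was 0 without floxed control replicate 1 or 2 and 1 without Cre-Idh1 replicate 1 or 2. Without Cre-Idh1 replicate 3, 3 rose against each control and 1 fell against the Cre control.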

How the data were processed

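Per the submitters' processing notes the authors used Trim Galore, cutadapt, STAR, HTSeq and DESeq2. Versions, genome build and use of strand are not given in these sources. The signal per gene and library was deposited as normalized expression, per the file headers. All values (100%) came out as whole reads, within 0.001 reads, when divided by the value of 1 read in their library. Each deposited log2 fold change, Wald statistic (a score), p-value and adjusted p-value comes from the authors, per the file headers. These p-values served as an alternative only.

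The main test was limma 3.58.1 (R 4.3.3) with a mean-variance trend, two-sided, on log2(value + 1). Each pair of groups was fitted alone, on the genes that reached 10 in at least as many libraries as are in its smaller group. p-values were adjusted by Benjamini-Hochberg across every gene of the fit, and an adjusted p under 0.05 was a call. Differences on this scale understate the change of low genes. Alternatives were a pseudocount of 0.5 or 5, no filter, TMM scaling, edgeR 4.0.16 (quasi-likelihood) and DESeq2 1.42.0 on recovered reads, all 8 libraries in 1 fit, each library left out, embryo sex as a covariate, an adjusted p under 0.1, coding length and the authors' table. Embryo sex was not fitted for Cre-Idh1 against the floxed control, whose libraries both had low Xist. edgeR called 2832, 2212 and 2 genes for Cre-Idh1 against Cre control, Cre-Idh1 against floxed control and floxed against Cre control. Replicate numbers follow the order of the sample records, so they pair no libraries. The limma fit was tested on simulated data.

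The members and gene lists were chosen with earlier results of these data known. Library values were given for the members called, for Psma8, the catalytic subunits and the activators, and, after their values were seen, for Psmb1, Psmc2, Psmc3, Psmc4, Psmd12, Psmd14 and Psmc3ip. From other lists up to 4 called genes with the smallest p were named, besides Nfe2l1, Nfe2l2, Pomp, Psmf1, Adrm1, Usp14, Irf1 and Idh1, where a few genes are not reported here; the remaining called NRF genes, Gclm, Maff, Mafk and Nqo1 among them, were named after the fact. Psmb11, Paaf1, Ifit1 and Ifit3 are not analysed here. Near copies were found with minimap2 2.31 in GENCODE M21 transcripts.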

Additional observations from a re-analysis of the deposited data

How the results depend on the processing

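Under each alternative run the median log2 difference of the members moved by less than its SD between libraries. That SD was taken over the 2 or 3 libraries of the first group compared, each set against the mean of the other group. Some of the members and of the list genes were followed singly through the alternatives, and none of these changed sign while called. Against the Cre control (2849 genes and 2 members called, all 2 lower), leaving out 1 library gave 1168 to 3854 genes and 0 to 5 members lower, and embryo sex as a covariate 1898 genes and 1 member. Against the floxed control (2196 genes, 0 members), leaving out 1 library gave 186 to 3752 genes, 0 to 3 members lower and 0 to 1 higher. All 8 libraries in 1 fit gave 3573 genes, an adjusted p under 0.1 gave 3554 and the authors' deposited table gave 4095, each with 2 members lower. DESeq2 called 2 members lower, and edgeR and a pseudocount of 5 called 1. Between the controls (2 genes), DESeq2 called 86 genes, the authors' deposited table called 36, and sex as a covariate and the joint fit 1 each, and leaving out 1 library gave 1 to 102, the highest without floxed control replicate 1. The ratio of the highest to the lowest constitutive 20S subunit per length was 16.4 by transcript length and 7.53 by coding length. No paired analysis was possible because the labels give no replicate numbers. The cause of these changes was not tested. With 2 or 3 libraries a group, the 95% interval lay within 0.5 on the log2 scale for 37 of the 44 members against the Cre control and 31 against the floxed control. Those beyond it included Psma8, Psmb8 and Psmb9, on 3 to 53 reads a library, and also well-covered genes such as Psmd6 in both, Psme1 against the Cre control, and Psmb6, Psmd14 and Psme4 against the floxed control.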
